A study of Homo sapiens with 6 samples.

Results

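The enzymes of serine synthesis and of the folate one-carbon pathway were followed in Huh7 cells, an established human hepatocellular carcinoma line, with and without overexpression of HK1, the gene of hexokinase 1. The 9 genes were PHGDH, PSAT1, PSPH, SHMT1, SHMT2, MTHFD1, MTHFD2, MTHFD1L and ALDH1L2, chosen by name from the 79172 gene names of the count table, and all 9 were found. The study asked how overexpressing HK1 affects hepatocellular carcinoma cells. It held 3 libraries of Huh7 cells with the genotype Control and 3 of Huh7 cells with the genotype Overexpressing HK1, and no other treatment, time or allele is named in the labels. How HK1 was introduced, what the control cells received, and whether replicates were separate cultures are not stated in the labels or headers read here, so p-values measure the spread between these libraries, which may be technical.

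Serine is built from the glycolytic intermediate 3-phosphoglycerate by PHGDH, PSAT1 and PSPH, in that order. Serine hydroxymethyltransferases then pass a carbon of serine to tetrahydrofolate, leaving glycine, and the folate-bound carbon is used for purines, thymidylate and methionine. The pathway runs in parallel in the cytosol (SHMT1, MTHFD1) and in mitochondria (SHMT2, MTHFD2, MTHFD1L, ALDH1L2), and the compartments exchange serine, glycine and formate. In many tumour cells the mitochondrial arm supplies formate to the cytosol. Several of these genes, among them PHGDH, PSAT1, SHMT2 and MTHFD2, are known targets of ATF4, a transcription factor of amino acid and mitochondrial stress.

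The 3 libraries of HK1-overexpressing cells are also called HK1 libraries. Libraries held 16771835 to 20823072 counts, and levels are given as CPM, the usual counts-per-million scale, with library totals adjusted by TMM factors. HK1 was counted 13, 15 and 13 times in control replicates 1, 2 and 3 and 9723, 10602 and 11101 times in the overexpressing replicates, as the labels say. Of 7 hepatocyte markers, all were detected in every library, with ALB at 3369 to 5039 CPM and APOA1 at 27.1 CPM in its lowest library. In HK1-overexpressing cells 5 of 7 were lower (edgeR adjusted p below 0.05), where 4.15% of all tested genes were. APOB and HNF4A did not pass. The leukocyte markers PTPRC, CD3E and CD68 had at most 8 counts in any library, while of the 4 endothelial markers CDH5 and KDR had 0, VWF 0 to 3 and PECAM1 80 to 114. Of the 4 fibroblast markers, DCN had at most 1 count and COL1A1 at most 8, COL3A1 had 32 to 51 and PDGFRA 70 to 110. PECAM1, COL3A1 and PDGFRA were tested and did not pass. Control libraries differed more among themselves than overexpressing ones, with a chi-square per degree of freedom of 4.95 or more in every control pair against 1.58 to 2.28. Ribosomal protein genes took 1.97% of counts in control replicate 1, 2.43% and 2.27% in replicates 2 and 3, and 2.08% to 2.14% in overexpressing libraries.

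The cytosolic enzyme genes MTHFD1 and SHMT1 were lower in HK1-overexpressing cells, and the mitochondrial MTHFD2 was higher, by folds of 0.846, 0.884 and 1.20. The other 6 genes, among them all 3 of serine synthesis, did not pass the test. Of the 9 genes, 1 rose and 2 fell at an adjusted p below 0.05 (edgeR quasi-likelihood test, Benjamini-Hochberg adjustment over 16734 tested genes), where 8.02% of all tested genes passed, 3.87% higher and 4.15% lower. With library totals in place of TMM factors, 66.0% of the genes called were higher, against 48.3% here. At an unadjusted p below 0.05 there were 3 members higher and 2 lower, where 21.9% of all tested genes passed. All 9 passed the filter on low counts. Their median log2 fold change, HK1-overexpressing over control, was -0.06 against 0.01 over all tested genes, and the median size of change was 0.129 against 0.123. Between-group overlap was absent for 2 genes that were higher and 2 that were lower, where 27.8% of all tested genes had none, 14% higher and 13.9% lower.

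**Figure D1:**
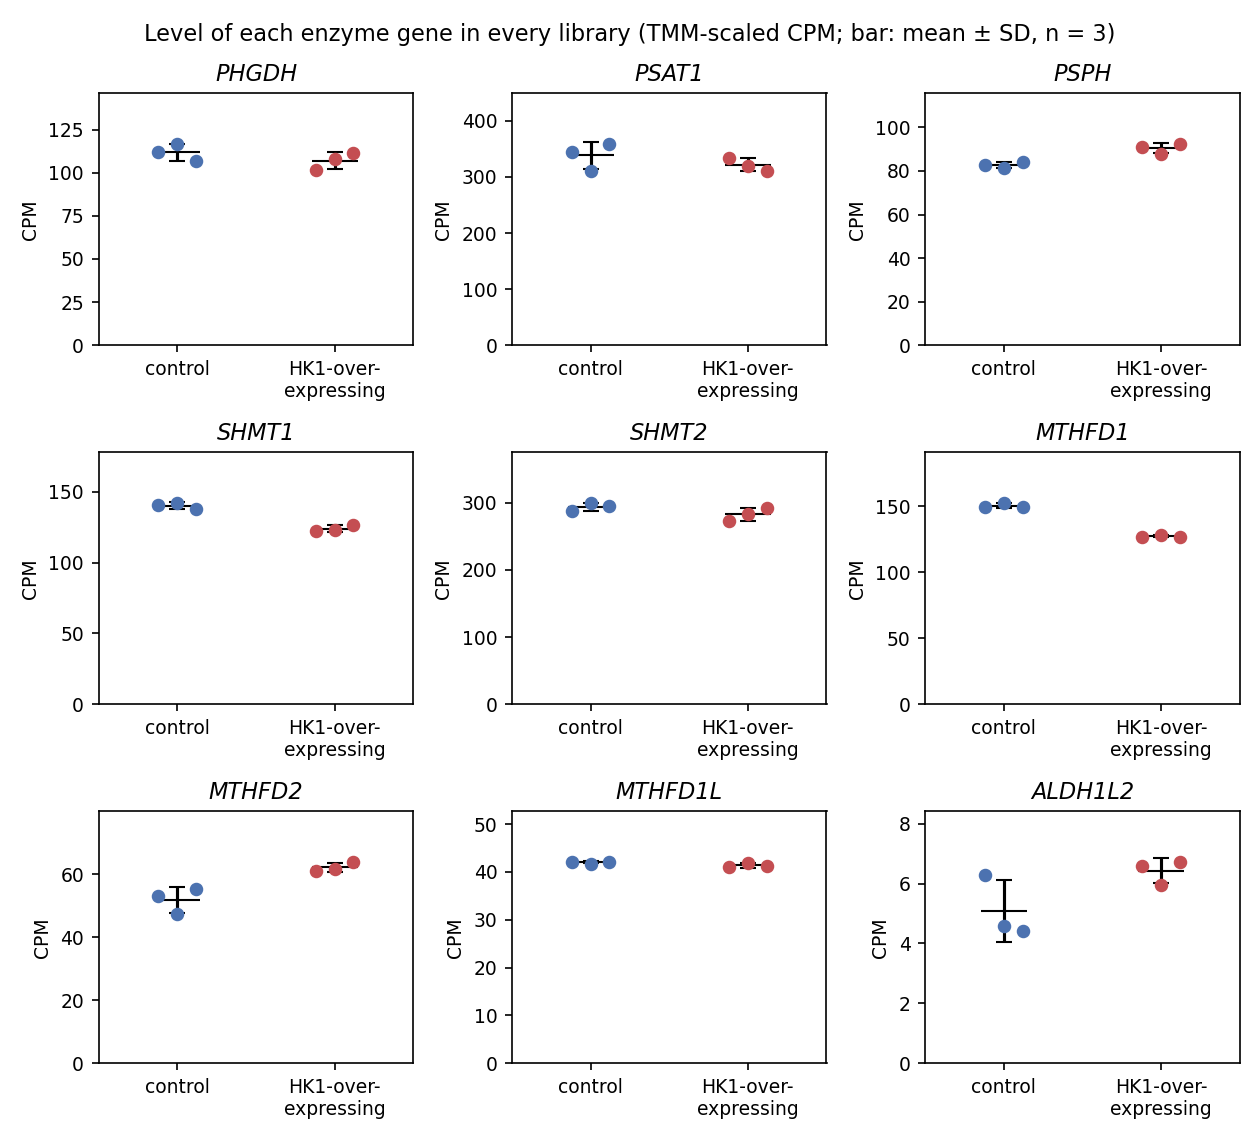
TMM-scaled CPM of each of the 9 enzyme genes in every library, with 3 control (blue) and 3 HK1-overexpressing (red) libraries per panel and bars for the mean and SD. MTHFD1 and SHMT1 sit lower and MTHFD2 and PSPH higher in all 3 overexpressing libraries than in any control library, while the groups overlap for the other 5 genes.

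PHGDH, the first and committing enzyme of serine synthesis, lies on chromosome 1 from 119648411 to 119744218 on the plus strand (hg38, as all gene positions here). Its level was 111.8, 116.8 and 106.7 CPM in control replicates 1, 2 and 3 and 101.5, 108.2 and 111.5 CPM in the overexpressing replicates. The groups overlapped, with 1 overexpressing library below all controls. PHGDH had a log2 fold change of -0.06 (SE 0.0566, edgeR adjusted p = 0.58), and the 95% interval of the fold ran from 0.881 to 1.04.

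PSAT1, the aminotransferase that follows, lies on chromosome 9 from 78297125 to 78330093 on the plus strand and shared no exon base with another gene of the table. Its levels were 344.4, 311.4 and 359.1 CPM in controls and 334.1, 319.7 and 311.1 CPM in HK1 libraries. Control replicate 2 lay within the range of the overexpressing libraries, so the groups overlapped. The log2 fold change was -0.07 (SE 0.0564, edgeR adjusted p = 0.501), with a fold interval of 0.874 to 1.03.

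PSPH, the phosphatase that releases serine, lies on chromosome 7 from 56011051 to 56051604 on the minus strand. Its control levels were 82.6, 81.3 and 84.3 CPM, with 90.9, 88.0 and 92.5 CPM in HK1 libraries. Every overexpressing library was above every control. The difference, a log2 fold change of 0.13 (SE 0.0526), passed before but not after adjustment over all genes (edgeR adjusted p = 0.161), and its unadjusted fold interval was 1.01 to 1.18. The pseudogene PSPHP1 had 0 counts in all 6 libraries.

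The ratio of PSPH to PHGDH raw counts, in which library scaling cancels, was 0.742 ± 0.0471 in controls and 0.846 ± 0.0438 in overexpressing cells (SD, n = 3 each), and the groups did not overlap. The ratio of PSAT1 to PHGDH was 3.04 ± 0.352 and 3.01 ± 0.256, with overlap. These ratios, like those below, were chosen after the values were seen and were not tested.

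MTHFD1 is the cytosolic trifunctional enzyme that interconverts formate, formyl-, methenyl- and methylene-tetrahydrofolate. It lies on chromosome 14 from 64388031 to 64463457 on the plus strand. Its level was 149.3, 152.7 and 149.6 CPM in control replicates 1, 2 and 3 and 127.1, 128.0 and 127.1 CPM in the overexpressing replicates. All controls were above all overexpressing libraries, and the spread in both groups was small. MTHFD1 fell from 150.5 ± 1.86 to 127.4 ± 0.555 CPM (SD, n = 3 each), and its log2 fold change was -0.24 (SE 0.0476, edgeR adjusted p = 0.00609). The fold was 0.846, with an interval of 0.789 to 0.908. That call was lost without HK1-overexpressing replicate 1 or 2 (edgeR adjusted p = 0.0551 and 0.0562). The processed pseudogene MTHFD1P1 had 24 to 33 counts a library, and 1.69% of its 100-base windows occurred unchanged in MTHFD1 transcripts.

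SHMT1, the cytosolic serine hydroxymethyltransferase, lies on chromosome 17 from 18327873 to 18363550 on the minus strand. Levels were 140.8, 142.3 and 137.9 CPM in controls and 122.3, 122.9 and 126.8 CPM in HK1 libraries. Again no overexpressing library reached a control. SHMT1 fell from 140.3 ± 2.21 to 124.0 ± 2.43 CPM (SD, n = 3 each), and its log2 fold change was -0.18 (SE 0.0488, edgeR adjusted p = 0.0369). The call was near the threshold and was lost on leaving out control replicate 3 (edgeR adjusted p = 0.0768) or HK1-overexpressing replicate 1, 2 or 3 (0.192, 0.2 and 0.112), with library totals only (0.0984), without a filter (0.0922) and with the replicate block (0.0976). The annotation also gives 69 SHMT1 exon records on alternate sequences, and their part in its counts was not tested.

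MTHFD2, the mitochondrial dehydrogenase and cyclohydrolase that is low in most adult tissues and high in many tumours, lies on chromosome 2 from 74186172 to 74217565 on the plus strand. Its control levels were 53.0, 47.3 and 55.4 CPM, with 61.2, 61.6 and 64.0 CPM in HK1 libraries. The overexpressing libraries were all above the controls, and control replicate 2 was the lowest of the 6. MTHFD2 rose from 51.9 ± 4.18 to 62.3 ± 1.52 CPM (SD, n = 3 each), and its log2 fold change was 0.26 (SE 0.0662, edgeR adjusted p = 0.0249). The fold was 1.20, with an interval of 1.09 to 1.32. The call was lost without HK1-overexpressing replicate 1, 2 or 3 (edgeR adjusted p = 0.079, 0.105 and 0.131), with a log2 fold change of 0.24 to 0.28 in those fits. SLC4A5, on the opposite strand, covers 11.6% of the exon bases of MTHFD2 and had 2 to 11 counts a library.

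SHMT2, the mitochondrial serine hydroxymethyltransferase, lies on chromosome 12 from 57229573 to 57234935 on the plus strand. Its levels were 287.7, 299.9 and 294.6 CPM in controls and 272.9, 283.6 and 292.0 CPM in HK1 libraries. The groups overlapped, and the log2 fold change was -0.06 (SE 0.0474, edgeR adjusted p = 0.545), with a fold interval of 0.896 to 1.03. MTHFD1L makes formate in mitochondria and lies on chromosome 6 from 150865679 to 151101887 on the plus strand. It had 42.1, 41.8 and 42.1 CPM in controls, with 41.0, 41.9 and 41.2 CPM in HK1 libraries. The control spread was relatively the smallest of the 9 genes, but was below what counting alone gives. Its log2 fold change was -0.02 (SE 0.0589, edgeR adjusted p = 0.878), and the fold interval was 0.903 to 1.08.

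ALDH1L2, the mitochondrial 10-formyltetrahydrofolate dehydrogenase, was the least abundant of the 9 genes and lies on chromosome 12 from 105019784 to 105107643 on the minus strand. It had 125, 78 and 73 raw counts in controls and 131, 124 and 142 in overexpressing cells, or 6.28, 4.57 and 4.43 CPM and 6.60, 5.96 and 6.73 CPM. Control replicate 1 lay among the overexpressing libraries. The log2 fold change was 0.32 (SE 0.141), the largest in size of the 9, and did not pass (edgeR adjusted p = 0.193, fold interval 1.02 to 1.54). Without control replicate 1 the log2 fold change was 0.52 and passed (edgeR adjusted p = 0.0179). The part of that library's low ribosomal protein share in this value was not tested. NOPCHAP1 and WASHC4, on the opposite strand, cover 1.53% and 1.38% of the exon bases of ALDH1L2. They had 423 to 569 and 1625 to 2865 counts a library, and their part in the counts of ALDH1L2 was not tested.

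**Figure D2:**
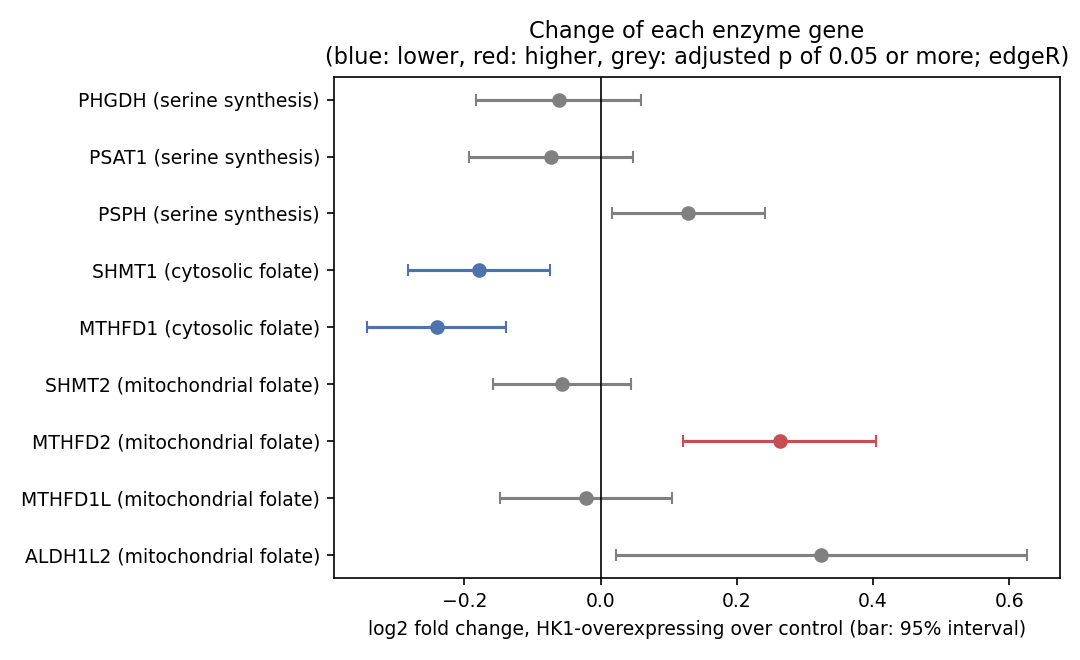
Log2 fold change, HK1-overexpressing over control, of each enzyme gene with its unadjusted 95% interval, from edgeR. MTHFD1 (-0.24) and SHMT1 (-0.18) are the 2 genes called lower, MTHFD2 (0.26) is the gene called higher, and the widest interval belongs to ALDH1L2.

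Within each library, mitochondrial enzyme genes stood higher relative to their cytosolic counterparts in the overexpressing cells. The ratios restate the values above, since their denominators MTHFD1 and SHMT1 were both called lower. Of the numerators MTHFD2 rose, while MTHFD1L and SHMT2 did not pass and had log2 fold changes of -0.02 and -0.06. The MTHFD2 to MTHFD1 ratio of raw counts was 0.355, 0.310 and 0.370 in control replicates 1, 2 and 3 and 0.482, 0.481 and 0.504 in the overexpressing replicates. Its mean was 1.42 times as high in the overexpressing group. For MTHFD1L to MTHFD1 the ratio was 0.279 ± 0.00481 in controls and 0.325 ± 0.00246 in overexpressing cells (SD, n = 3 each). The SHMT2 to SHMT1 ratio was 2.10 ± 0.0473 and 2.28 ± 0.0429 in the same order. None of these 3 ratios overlapped between groups. MTHFD1 and MTHFD1L each varied less than counting alone gives in both groups, so the SDs of their ratio understate its error.

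**Figure D3:**
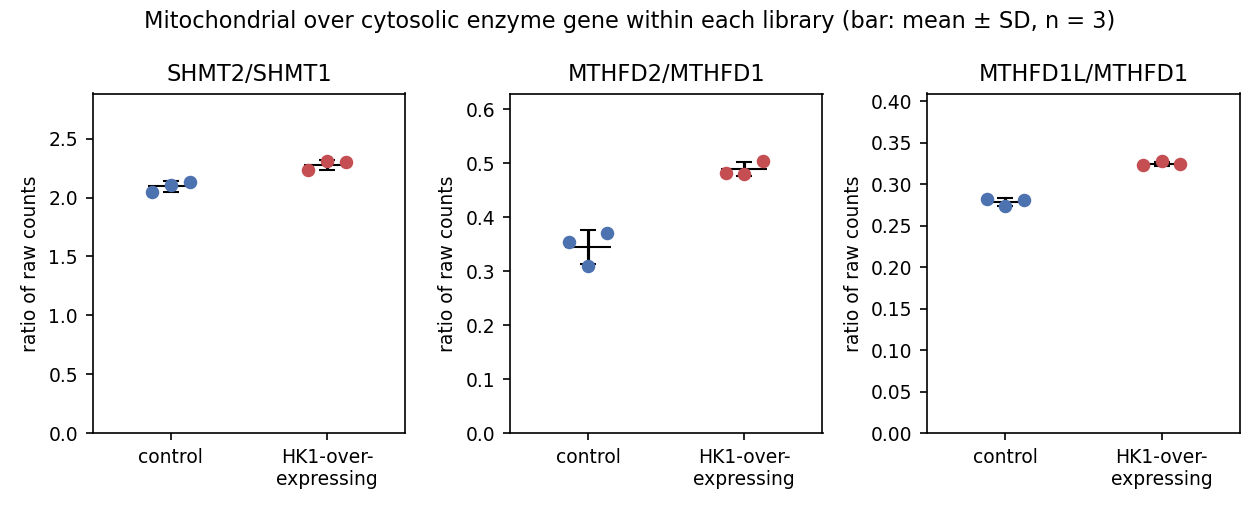
Ratio of raw counts of a mitochondrial enzyme gene to its cytosolic counterpart in each of 3 control (blue) and 3 HK1-overexpressing (red) libraries, with bars for the mean and SD. All 3 ratios are higher in every overexpressing library, with MTHFD2 over MTHFD1 at 0.310 to 0.370 in controls and 0.481 to 0.504 in overexpressing cells.

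Between genes, levels were compared as CPM per kilobase of the longest transcript that GENCODE 29 tags as principal. In controls PSAT1 was highest at 155 ± 11.2, followed by SHMT2 at 116 ± 2.40, SHMT1 at 57.0 ± 0.898, MTHFD1 at 48.0 ± 0.594, PHGDH at 43.2 ± 1.95 and PSPH at 38.0 ± 0.691 CPM per kilobase. MTHFD1L and MTHFD2 came next at 11.7 ± 0.0580 and 11.6 ± 0.937 and were not separated beyond their spread, and ALDH1L2 was lowest at 0.675 ± 0.137 (SD, n = 3 each). In overexpressing cells MTHFD1, PHGDH and PSPH were no longer separated, at 40.6 ± 0.176, 41.4 ± 1.97 and 41.5 ± 1.05 CPM per kilobase. The order depended on the length used. Per kilobase of all annotated exon bases on the main chromosome, PSPH was the third of the 9 in controls and MTHFD1 the sixth, since the annotation gives MTHFD1 17357 exon bases against 3136 in its principal transcript.

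Replicate spread set against counting error differed between the genes. The coefficient of variation in controls was 1.24% for MTHFD1 and 1.58% for SHMT1, where counting alone gives 1.93% and 2.00%. MTHFD2 varied by 8.05% in controls against 3.29% from counting, PSAT1 by 7.22% against 1.29%, ALDH1L2 by 20.2% against 10.4%, and PHGDH by 4.51% against 2.24%. In overexpressing cells MTHFD2, PSAT1, ALDH1L2 and PHGDH varied by 2.44%, 3.62%, 6.35% and 4.75%. SHMT2 varied by 2.07% in controls and 3.4% in overexpressing cells, against 1.38% and 1.31% from counting. PSPH and MTHFD1L varied in controls by 1.82% and 0.498%, below the 2.61% and 3.66% that counting gives. In overexpressing cells MTHFD1 and MTHFD1L varied by 0.436% and 1.18%, below the 1.95% and 3.43% from counting. Control replicate 2 was lowest for both MTHFD2 and PSAT1.

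Promoter sequence was taken from RefSeq (GRCh38.p14) as the 250 bases before each annotated start, for 6 of the 9 genes. PSPH, SHMT2 and ALDH1L2 are named only. Both strands were searched for TGATGNAA, or TTNCATCA on the other strand, the core of the C/EBP-ATF response element through which ATF4 is known to act. The element was present in 3.14% of 35116 such windows, and in a window of 3.89% of 27305 genes. Of the 6 genes here, MTHFD1L alone had the element before its starts. There it was TGATGCAA at position -129 from 1 of 4 annotated starts, and was also in the window of a second start that overlaps the first. It was not in the windows of PHGDH, PSAT1, MTHFD1, SHMT1 or MTHFD2. The windows of the 3 genes that passed the test, and the MTHFD1L window with the element in capitals, are shown 5′ to 3′ on the strand of the gene so that the called genes can be set beside the 1 match. They are MTHFD1 at chr14:64388103-64388352 (plus), SHMT1 at chr17:18363551-18363800 (minus), MTHFD2 at chr2:74198365-74198614 (plus) and MTHFD1L at chr6:150866236-150866485 (plus).
MTHFD1: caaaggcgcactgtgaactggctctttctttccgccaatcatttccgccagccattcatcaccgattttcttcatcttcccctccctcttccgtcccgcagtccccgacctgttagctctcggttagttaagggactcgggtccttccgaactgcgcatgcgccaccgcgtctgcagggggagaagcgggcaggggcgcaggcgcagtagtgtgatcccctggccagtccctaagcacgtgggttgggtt
SHMT1: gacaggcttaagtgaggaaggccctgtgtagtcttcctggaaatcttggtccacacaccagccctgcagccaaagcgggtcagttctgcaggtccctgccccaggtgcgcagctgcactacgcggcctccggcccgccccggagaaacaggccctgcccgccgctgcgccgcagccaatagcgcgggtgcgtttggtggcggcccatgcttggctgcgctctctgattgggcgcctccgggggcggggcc
MTHFD2: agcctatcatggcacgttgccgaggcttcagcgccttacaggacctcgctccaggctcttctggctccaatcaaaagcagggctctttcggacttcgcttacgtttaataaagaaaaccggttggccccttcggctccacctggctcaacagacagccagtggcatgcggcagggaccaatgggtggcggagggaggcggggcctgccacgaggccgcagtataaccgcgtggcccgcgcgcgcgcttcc
MTHFD1L: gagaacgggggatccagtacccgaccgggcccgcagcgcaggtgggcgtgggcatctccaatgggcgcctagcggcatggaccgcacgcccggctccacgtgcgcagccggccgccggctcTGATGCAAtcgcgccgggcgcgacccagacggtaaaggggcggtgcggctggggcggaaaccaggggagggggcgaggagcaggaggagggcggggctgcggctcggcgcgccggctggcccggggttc
MTHFD1L, which holds the element, did not pass between groups, and MTHFD2, without it in this window, was higher. Sequence outside these 250 bases was not searched, and whether ATF4 acts on any of these genes here was not tested. G and C made up 60.0% of the bases in the MTHFD1 window, 62.4% for MTHFD2, 68.4% for SHMT1 and 76.0% for this MTHFD1L window.

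Other folate genes that passed the test were all lower. Of 12 tested folate enzymes and carriers outside the 9 genes, 4 fell and 0 rose, where 4.15% and 3.87% of all tested genes did. The median log2 fold change of the 12 was -0.10, with 8 below 0 and 4 above. TYMS, thymidylate synthase, which uses methylene-tetrahydrofolate, fell from 78.1 ± 4.52 to 66.2 ± 2.10 CPM (SD, n = 3 each, log2 -0.24, edgeR adjusted p = 0.0251). The reduced folate carrier SLC19A1 and the proton-coupled folate transporter SLC46A1 fell by 0.27 and 0.42 on the log2 scale (edgeR adjusted p = 0.0209 and 0.0169). Other rows cover 48% of the exon bases of TYMS, with 39.9% covered by ENOSF1. For SLC46A1 other rows cover 69.7%, with 55.6% covered by SARM1. With no overlap option set, fragments that fall in shared exon bases are counted for neither gene, so the counts of TYMS and SLC46A1 are uncertain. Leaving out control replicate 3 or HK1-overexpressing replicate 3 gave 2 falls, and leaving out HK1-overexpressing replicate 1 or 2 gave 1. With all libraries kept, SLC46A1 lost its call with DESeq2 (adjusted p = 0.0625), and TYMS lost its call by edgeR with library totals only (adjusted p = 0.0597) and with the replicate block (0.05). SLC25A32, the mitochondrial folate carrier, was at 0.755 ± 0.180 CPM in controls, but other rows cover 80.8% of its exon bases, so its count is no measure of its level.

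Of 6 tested genes of glycine cleavage and mitochondrial serine carriage, 1 rose and 1 fell, where 3.87% and 4.15% of all tested genes did. SFXN3, a mitochondrial serine carrier, rose from 24.8 ± 1.70 to 35.4 ± 1.94 CPM (SD, n = 3 each, log2 0.51, edgeR adjusted p = 0.000598). The estimate was larger in size than that of any of the 9 enzyme genes. Its fold interval of 1.28 to 1.60 overlapped that of ALDH1L2, 1.02 to 1.54, and the difference was not tested. GLDC, the glycine decarboxylase, fell from 56.1 ± 2.28 to 48.5 ± 0.561 CPM (log2 -0.21, edgeR adjusted p = 0.0419), a call lost in 9 of 15 alternatives, 5 of which left out a library (control replicate 1 or 3, or each HK1 library in turn).

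Of 13 tested genes of the methionine cycle, transsulfuration and choline oxidation, 1 rose and 2 fell, where 3.87% and 4.15% of all tested genes did. The median log2 fold change of the 13 was -0.18. SARDH, which passes a carbon of sarcosine to mitochondrial folate, fell from 42.7 ± 3.22 to 31.8 ± 1.08 CPM (log2 -0.43, edgeR adjusted p = 0.00173). AHCY, which clears S-adenosylhomocysteine, fell from 517.5 ± 11.3 to 457.7 ± 9.07 CPM (log2 -0.18, edgeR adjusted p = 0.0248). CTH, which makes cysteine from cystathionine, rose from 8.38 ± 0.416 to 10.9 ± 0.724 CPM (SD, n = 3 each throughout, log2 0.38, edgeR adjusted p = 0.0267). CTH lost its call with DESeq2, when control replicate 3 was left out and when each HK1 library was. In this list 5 genes fell when control replicate 2 was left out, and 1 when control replicate 3 or an HK1 library was. AHCY also lost its call by edgeR with library totals only (adjusted p = 0.0729) and with the replicate block (0.0753).

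No gene of serine uptake or other serine use passed. Of 13 tested, 0 rose and 0 fell by edgeR, by DESeq2 and by limma-voom, and at an unadjusted edgeR p below 0.05 there were 1 higher and 3 lower, where 10.7% and 11.2% of all tested genes were. SDSL, a serine dehydratase-like enzyme, had a log2 fold change of -0.40 (edgeR adjusted p = 0.0723), and PTDSS1, a phosphatidylserine synthase, of -0.14 (edgeR adjusted p = 0.117). Without control replicate 1, and also without a filter, 1 member passed as higher.

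De novo purine synthesis takes formyl groups from folate at the steps of GART and ATIC. Of its 6 genes, 1 fell and 0 rose, where 4.15% and 3.87% of all tested genes did. All 6 had a log2 fold change below 0, as did 8130 of 16734 tested genes. PFAS, which acts between those steps, went from 95.1 ± 1.86 to 81.8 ± 3.91 CPM (SD, n = 3 each, log2 -0.22, edgeR adjusted p = 0.0267). ATIC and PAICS had log2 fold changes of -0.16 and -0.15 (edgeR adjusted p = 0.0641 and 0.0882). Leaving out control replicate 1 gave 2 falls, control replicate 2 gave 3, and control replicate 3 or an HK1 library gave 0. With all libraries kept, DESeq2 gave 2 falls, while PFAS lost its call by edgeR with library totals only (adjusted p = 0.0659) and with the replicate block (0.058), leaving 0.

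Among ATF4 and its other known targets, 6 of 24 tested genes rose and 0 fell, where 3.87% and 4.15% of all tested genes did. The median log2 fold change of the list was 0.08, with 15 genes above 0 and 9 below. At an unadjusted edgeR p below 0.05 there were 9 higher and 3 lower, where 10.7% and 11.2% of all tested genes were. SLC7A11, the cystine transporter, had 61.0, 42.5 and 57.0 CPM in controls, against 72.8, 77.3 and 73.9 CPM in HK1 libraries (log2 0.48, edgeR adjusted p = 0.0411). CEBPB, a partner of ATF4, rose from 35.3 ± 2.36 to 43.4 ± 0.876 CPM (SD, n = 3 each, log2 0.30, edgeR adjusted p = 0.0132), and VLDLR and ADM2 rose from 19.7 ± 2.17 to 31.6 ± 0.631 CPM and from 4.34 ± 0.224 to 7.07 ± 0.699 CPM. ATF4 itself, named here after its values were seen, had 241.5 ± 17.9 CPM in controls, against 226.0 ± 3.64 CPM in HK1 libraries (log2 -0.10). Its edgeR adjusted p was 0.351. ASNS, a widely used ATF4 target, was at 0.781 ± 0.0998 and 0.970 ± 0.104 CPM, but another row covers 49.3% of its exon bases and its count is uncertain. Leaving out control replicate 3 gave 3 rises and leaving out an HK1 library gave 2. With control replicate 1 left out, 1 gene fell. With all libraries kept, 4 rose with DESeq2, without robust dispersion and with the replicate block, and 8 with library totals only.

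**Figure D4:**
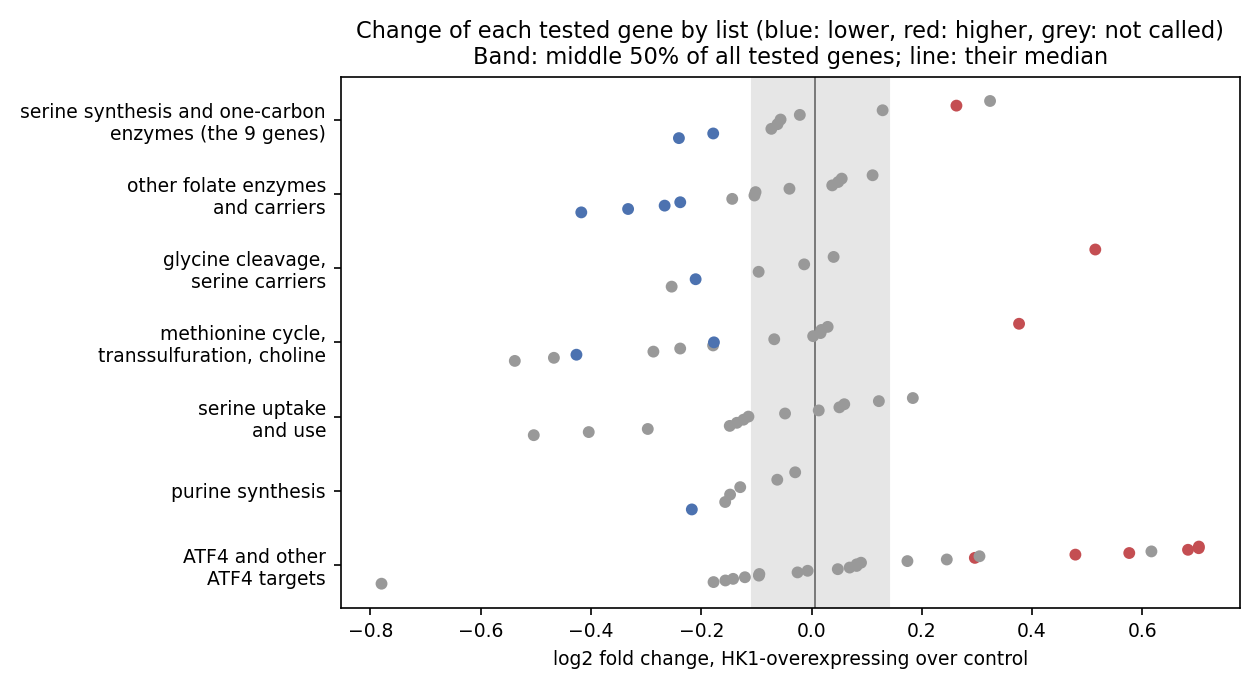
Log2 fold change of every tested gene in the 9 enzyme genes and the 6 related lists, with genes called lower in blue, called higher in red and not called in grey. The grey band holds the middle 50% of all tested genes, from -0.11 to 0.14. All 6 called genes of the ATF4 list lie on the higher side. All 4 called genes among other folate enzymes and carriers lie on the lower side. Of all tested genes, 3.87% were called higher and 4.15% lower.

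In bulk RNA, a lower level in every cell and a smaller share of cells at a high level cannot be told apart, and this holds for each value given here. A difference between members in their response, such as MTHFD2 against MTHFD1L, was not tested.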

How the data were processed

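The authors deposited whole-number raw counts for each gene name, made with featureCounts 1.5.3 in paired mode over exons of GENCODE release 47, with no strand, multi-mapping or overlap option set, per the file headers. All 6 deposited columns hold whole numbers, so none holds an expected or estimated count. Trim Galore, Subread and hg38 are named without versions, per the submitters' processing notes. TRIZOL extraction and a stranded mRNA kit are given, per the labels' protocols. Without strand, a gene and its antisense partner cannot be told apart where their exons overlap, and fragments there are counted for neither.

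Counts were filtered with filterByExpr, scaled by TMM and compared with edgeR 4.0.16 in R 4.3.3 (robust quasi-likelihood test, group as the only term, Benjamini-Hochberg adjustment, 0.05). Log2 fold changes use the default prior count. Standard errors are the unshrunken coefficient over the square root of F, and 95% intervals follow from them, unadjusted. The fit was also run on simulated data, but the outcome is not reported here and is no support for the calls. Alternatives used DESeq2 1.42.0, limma-voom (limma 3.58.1), other scaling, filters and dispersion, a replicate block and each library left out.

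Members and lists were chosen with earlier results of these data known. Named from each of 6 lists were up to 4 called genes of smallest p and, with fewer than 2 called, the 2 best uncalled. Exon overlaps come from the table's coordinates, and transcript lengths from GENCODE 29. The lists' counts are descriptions, with no set test. Some genes of these lists are not reported here.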

Additional observations from a re-analysis of the deposited data

How the results depend on the processing

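The number of the 9 enzyme genes called higher was 1 in every alternative that kept all libraries, and the number called lower was 2 except for 1 with library totals only, 1 without a filter and 1 with the replicate block, where SHMT1 was lost. With 1 library left out, 0 to 2 were higher and 0 to 2 lower. Over all genes, 286 to 1172 were then higher and 250 to 1085 lower, against 648 and 694 with all libraries. With library totals only, 898 genes were higher and 463 lower. The replicate block gave 563 and 511. Replicate numbers showed no clear pairing of the libraries. Deviations of same-numbered libraries correlated at -0.01, 0.05 and -0.05 over genes, and 1 of 3 control libraries correlated best with its own number. SHMT1, which lost its call under the block, had a log2 fold change of -0.18 with and without it. Of the 9 genes, MTHFD1L alone changed the sign of its log2 fold change, between -0.03 and 0.02, without being called. HK1 could not be fitted where it was removed before scaling. With 3 libraries a group, the fold intervals of uncalled members other than ALDH1L2 lay between 0.874 and 1.18, and the 73 to 142 counts of ALDH1L2 limit its precision.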
